A study of Mus musculus with 2 samples.

Results

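The Pax, Tbx, Lhx, Dlx, Nkx and Six-family genes encode transcription factors that pattern the embryo, and captured methylated DNA was read here at 48 of them in mouse testis. The genes were taken by name: 9 Pax, 10 Tbx, 8 Lhx, 6 Dlx, 10 Nkx and 5 Six-family genes, of 21887 protein-coding genes in the annotation. Each gene was represented by the listed 100 bp windows that overlap its annotated span plus 1 kb on each side. The 48 genes lie on 15 chromosomes, with none on X.

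The study held 2 libraries, 1 of a Kaiso knockout testis and 1 of a wildtype testis, both on the C57BL/6 background. Kaiso, the product of Zbtb33, is a repressor that reads methylated CpGs through zinc fingers. Sheared testis DNA was captured on the methyl-CpG binding domain of MBD2 and sequenced, so that a window's count rises with the amount of methylated DNA from it. The knockout library was labelled as a generation 3 offspring with male sterility, and its sample description also calls the testis wildtype, so each knockout value rests on the genotype label. Age, the deleted stretch of the allele and the number of animals behind each library are not given in the sources used here. With 1 library per genotype no difference had a replicate check, and no test across samples was possible.

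The knockout library held 98549116 reads and the wildtype library 87710791. The deposited table listed 2537435 windows, with a median of 40 knockout and 39 wildtype counts, and every listed window had a deposited p-value below 0.05. A window outside the list was therefore not shown to be equal in the libraries, and ratios inside it are pushed away from 1. At Zbtb33 itself the listed windows held 83 knockout and 303 wildtype counts, a log2 ratio of -2.04 (95% interval -2.80 to -1.31). That value is of captured DNA and not of RNA, and it checks the genotype label only weakly.

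Pax proteins bind DNA through a paired domain, Tbx proteins through a T-box, and Lhx, Dlx, Nkx and Six-family proteins through a homeodomain. Such genes are silent in most adult tissues, and their starts usually lie in long CpG islands that stay unmethylated in somatic and germ cells and are held by Polycomb complexes. CpG islands are stretches in which CG is frequent, and methylation at them is the exception in normal tissue.

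Promoters show these letters directly. RefSeq promoters of the GRCm38.p6 assembly, each from 250 bases before to 50 bases after a transcript's start, were found for 35 of the 48 genes, as 44 promoters. They held a median of 17 CpGs, against 13 over all 21263 promoters of protein-coding genes. Listed windows overlapped 5 of the 44 (11.4%), 2 of them at Tbx1 and 1 each at Tbx4, Tbx6 and Pax8, against 16.8% of all promoters. These 5 are printed because they are the promoters of these families that carry measured windows, 5′ to 3′ on the strand of the gene with each CG in capitals.

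Tbx1 at chr16:18588850-18589149 on the minus strand: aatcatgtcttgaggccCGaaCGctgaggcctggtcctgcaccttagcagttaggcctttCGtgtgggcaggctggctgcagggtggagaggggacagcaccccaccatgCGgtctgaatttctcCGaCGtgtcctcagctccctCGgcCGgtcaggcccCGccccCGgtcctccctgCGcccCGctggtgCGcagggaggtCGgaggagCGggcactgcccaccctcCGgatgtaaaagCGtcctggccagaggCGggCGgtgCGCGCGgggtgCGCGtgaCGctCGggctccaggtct
Tbx1 at chr16:18590622-18590921 on the minus strand: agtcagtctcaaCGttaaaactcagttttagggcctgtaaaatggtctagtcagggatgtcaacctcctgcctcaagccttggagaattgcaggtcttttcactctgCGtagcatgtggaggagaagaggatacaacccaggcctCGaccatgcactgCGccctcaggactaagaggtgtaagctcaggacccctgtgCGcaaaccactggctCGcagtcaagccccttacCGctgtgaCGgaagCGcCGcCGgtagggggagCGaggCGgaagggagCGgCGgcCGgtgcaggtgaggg
Tbx6 at chr7:126781233-126781532 on the plus strand: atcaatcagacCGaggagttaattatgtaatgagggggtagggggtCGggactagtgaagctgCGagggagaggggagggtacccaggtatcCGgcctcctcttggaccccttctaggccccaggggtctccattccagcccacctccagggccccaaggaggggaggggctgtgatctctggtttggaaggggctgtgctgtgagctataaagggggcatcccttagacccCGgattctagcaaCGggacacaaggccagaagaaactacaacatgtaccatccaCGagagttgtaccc
Pax8 at chr2:24475550-24475849 on the minus strand: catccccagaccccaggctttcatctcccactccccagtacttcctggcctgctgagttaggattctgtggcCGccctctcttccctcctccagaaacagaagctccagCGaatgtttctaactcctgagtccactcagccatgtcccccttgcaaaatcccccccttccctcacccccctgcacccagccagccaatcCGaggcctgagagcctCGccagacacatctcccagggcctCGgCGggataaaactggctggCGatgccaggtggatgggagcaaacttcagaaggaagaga
Tbx4 at chr11:85896515-85896814 on the plus strand: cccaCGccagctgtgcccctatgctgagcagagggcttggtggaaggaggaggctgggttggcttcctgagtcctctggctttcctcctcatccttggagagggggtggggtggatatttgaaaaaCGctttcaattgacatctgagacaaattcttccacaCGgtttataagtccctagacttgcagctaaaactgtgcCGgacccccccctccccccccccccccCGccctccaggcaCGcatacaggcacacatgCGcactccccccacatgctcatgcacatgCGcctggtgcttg

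The first Tbx1 promoter holds 26 CpGs and the second 16, whereas those of Tbx4, Tbx6 and Pax8 hold 8, 7 and 7. For contrast, promoters of Dlx2 and Nkx6-1 are shown, which carry 29 and 40 CpGs and no listed window. Both were chosen after their values were seen, Dlx2 because its gene body holds the highest ratio of the 48 genes and Nkx6-1 because its whole region held no listed window.

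Dlx2 at chr2:71546705-71547004 on the minus strand: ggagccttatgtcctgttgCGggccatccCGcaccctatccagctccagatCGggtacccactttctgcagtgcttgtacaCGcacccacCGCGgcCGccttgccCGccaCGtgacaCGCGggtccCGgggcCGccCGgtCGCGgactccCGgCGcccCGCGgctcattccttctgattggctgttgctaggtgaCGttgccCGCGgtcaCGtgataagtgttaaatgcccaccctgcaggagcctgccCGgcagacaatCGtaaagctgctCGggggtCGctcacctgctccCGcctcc
Nkx6-1 at chr5:101664662-101664961 on the minus strand: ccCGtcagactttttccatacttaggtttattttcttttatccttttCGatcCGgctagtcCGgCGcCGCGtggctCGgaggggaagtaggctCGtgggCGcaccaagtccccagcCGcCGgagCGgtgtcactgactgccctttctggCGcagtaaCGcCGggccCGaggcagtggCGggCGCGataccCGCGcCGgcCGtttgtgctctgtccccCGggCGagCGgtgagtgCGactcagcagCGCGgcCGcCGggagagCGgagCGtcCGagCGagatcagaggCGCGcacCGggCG

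All 5 listed promoters had more captured DNA in the knockout library. The windows over the first Tbx1 promoter summed to 210 knockout and 28 wildtype counts, and those over the second to 50 knockout and 8 wildtype counts. Single windows of the first held between 47 and 59 knockout counts and between 6 and 8 wildtype counts, and the window with 15 CpGs held 51 knockout and 7 wildtype counts. At Tbx6 the promoter windows summed to 101 knockout and 30 wildtype counts, at Pax8 to 92 knockout and 28 wildtype counts, and at Tbx4 to 46 knockout and 9 wildtype counts. Over all protein-coding genes, 70.9% of listed promoters were higher in the knockout library. That share was 97.7% with 10 or more CpGs, the class of both Tbx1 promoters, and 61.4% with fewer. Among promoters with 10 or more CpGs, 2 of 37 were listed in these families (5.41%) and 7.78% in all genes. With fewer than 10 CpGs, 3 of 7 were listed, against 28.6% in all genes.

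Kaiso is known to bind methylated CGCG stretches and the unmethylated sequence CTGCNA, and both were searched as letters only. CGCG, which reads the same on both strands, was present in 65.9% of the 44 promoters and in 49.2% of all promoters. Within promoters of 10 or more CpGs the order turned, at 73.0% in these families and 82.5% in all genes. CTGCNA on either strand was present in 63.6% of the 44 promoters and in 48.1% of all promoters. The motifs cannot overlap each other, and a match is a run of letters and not a measured site. Of the listed promoters printed above, the first Tbx1 promoter holds CGCG at 3 places and the other 4 hold none.

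Over whole genes, most of the 48 regions differed by less than 2-fold and the larger differences went mainly one way. Listed windows were present at 43 genes, and 41 had at least 20 fragments over both libraries, where 4 window counts were taken as 1 fragment. Higher and lower are said of a gene in the knockout library where the ratio per library read was at least 2 or at most 0.5 and its 95% counting interval excluded 1. Of the 41 genes, 12 were higher (29.3%), against 9.63% of all 19245 protein-coding genes with the same minimum, and 3 were lower (7.32%), against 5.70%. The median log2 ratio of the 41 genes was 0.28, with an order-statistic interval of -0.05 to 0.77, beside 0.31 over all genes. The share called higher thus lay above that of all genes while the medians were close. Centring on all windows with 5 or more CpGs gave 8 higher and 8 lower genes, against 4.69% and 12.1% of all protein-coding genes. Scaling within CpG classes gave 7 higher and 4 lower, against 6.70% and 6.66%.

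The remaining 26 genes lay between -0.97 and 0.81, 19 of them within 0.5 of 0. Just inside the threshold were Six4 at 1.05, Tbx3 at 1.17 and Pax4 at -1.25, and just outside it Nkx2-5 at -0.97. Nkx2-3, which acts in spleen and gut, had 66 knockout and 5 wildtype counts, and Six6, a retina and pituitary gene, had 4 knockout and 39 wildtype counts, both under the minimum. The log2 ratios were 3.55 (95% interval 1.15 to 9.22) at Nkx2-3 and -3.45 (-8.93 to -0.68) at Six6. Lhx5, Nkx2-1, Nkx2-6, Nkx2-9 and Nkx6-1 had no listed window, so that 4 of the 5 genes without any were Nkx genes. The regions of 32 genes overlap another annotated gene, and captured DNA in the shared stretch cannot be assigned to either.

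**Figure D1:**
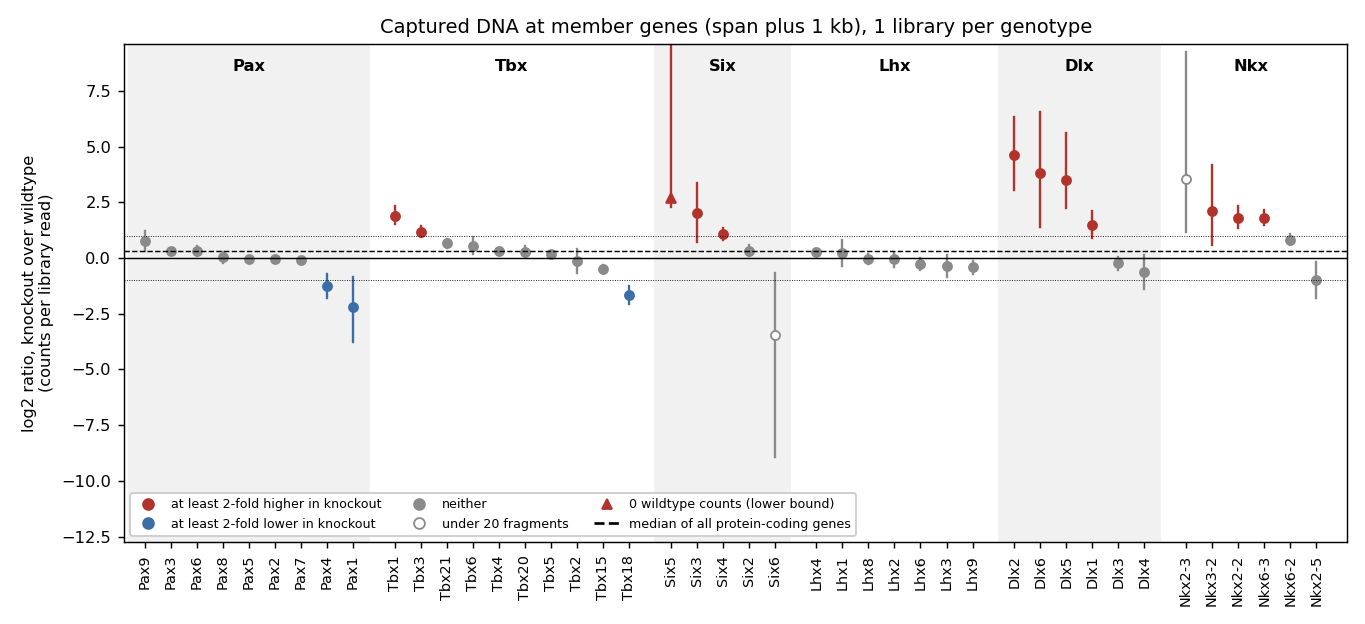
The log2 ratio of knockout over wildtype counts per library read is plotted for each of the 43 genes with listed windows, grouped by family, with bars for the 95% counting interval. Red and blue points are genes called higher and lower, and open points are genes under 20 fragments. The triangle at Six5 marks 0 wildtype counts, set to a floor of 3 fragments. The highest value is Dlx2 at 4.62 and the Lhx genes all lie between -0.42 and 0.26.

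Dlx genes, which act in pairs in forebrain interneurons, the jaw and the limbs, held the highest ratios. Dlx2 had 387 knockout and 14 wildtype counts in 17 windows, all of them higher in the knockout library, a 24.6-fold ratio (log2 4.62, 95% interval 3.03 to 6.34). Its neighbour Dlx1 had 397 knockout and 128 wildtype counts (log2 1.46, 0.87 to 2.08). The other neighbouring pair moved as well, with 230 knockout and 18 wildtype counts at Dlx5 and 96 knockout and 6 wildtype counts at Dlx6. Their log2 ratios were 3.51 (2.26 to 5.61) at Dlx5 and 3.83 (1.41 to 6.54) at Dlx6. With 5 kb on each side Dlx6 turned to -0.14 (-0.64 to 0.34), and the gene rests on 6 windows. The pair on chromosome 11 did not reach the threshold: Dlx3 had 794 knockout and 830 wildtype counts (log2 -0.23), and Dlx4 had 108 knockout and 149 wildtype counts (log2 -0.63). Thus 4 of 6 Dlx genes were higher over spans plus 1 kb, and the median over all 6 was 2.49. Among all protein-coding genes 9.63% were higher, and 23.4% of those under 10 kb, the length class of every Dlx gene. Dlx1 fell under 2-fold without flanks, at 0.80, and at 0.80 with windows of 5 or more CpGs centred. Summed over the family the log2 ratio was 0.65. Dlx3 held the most counts, and without it the sum was 1.78. With Dlx3 kept and windows of 5 or more CpGs centred, the sum was -0.021.

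The Dlx2 signal formed a single block. Its 17 windows were adjacent, on chromosome 2 from 71543601 to 71545300, inside the gene and not at its printed promoter. Each window held between 15 and 31 knockout counts and between 0 and 2 wildtype counts, and neighbouring windows share fragments. The block averaged 5.59 CpGs per window, with at most 14. At Dlx5, 7 adjacent windows from 6878001 to 6878700 on chromosome 6 held 149 knockout counts and no wildtype count. Against a floor of 3 fragments that Dlx5 block was higher by at least 11.1-fold.

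Six-family genes act in eye, kidney and muscle formation. Of the 4 with the minimum 3 were higher, against 9.63% of all protein-coding genes. Six5, which lies beside the myotonic dystrophy kinase gene, had 86 knockout counts and 0 wildtype counts. Against a floor of 3 fragments it was 6.38-fold higher, with a 95% interval of the log2 ratio from 2.29. Six3, a forebrain and eye regulator, had 122 knockout and 27 wildtype counts (log2 2.01, 0.72 to 3.36). Six4, a gene of muscle development, had 1608 knockout and 690 wildtype counts (log2 1.05, 0.80 to 1.32). These calls depended on the region taken: with 5 kb on each side Six3 turned to -0.16, and with gene ends only Six4 turned to -3.17, under the minimum there and with an interval of -8.28 to 0.29. Autosomal scaling also took Six4 under 2-fold, at 0.78. The family sum was 0.75 over gene spans and -0.72 over gene ends.

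Six2, which maintains nephron progenitors, differed little as a whole gene and much more inside it. It had 1197 knockout and 846 wildtype counts in all, a log2 ratio of 0.33 (0.07 to 0.59). Its windows with 5 or more CpGs held 259 knockout and 11 wildtype counts, a 21.0-fold ratio (log2 4.39, 2.66 to 6.58), while its windows with 1 or 2 CpGs gave -0.66 (-1.01 to -0.30). A block of 15 windows on chromosome 17 from 85679701 to 85681200 held 416 knockout and 31 wildtype counts, and another of 11 windows from 85684801 to 85685900 held 190 knockout counts and no wildtype count. Against the floor the second block was higher by at least 14.1-fold. Between these blocks lay windows that went the other way, such as the one from 85682501 to 85682600 with 24 knockout and 64 wildtype counts and 1 CpG, as the plot of windows along Six2 shows.

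Nkx genes act in thyroid, heart, gut, pancreas and the ventral neural tube. Among the 5 with the minimum, 3 were higher, against 9.63% of all protein-coding genes and 23.4% of those under 10 kb. Of the 83 listed Nkx windows 94.0% were higher in the knockout library, against 56.8% at all protein-coding genes. Nkx2-2, which specifies ventral neurons and islet cells, had 745 knockout and 189 wildtype counts (log2 1.81, 1.35 to 2.31). Nkx6-3, a stomach gene, had 1499 knockout and 386 wildtype counts (log2 1.79, 1.47 to 2.14). The intervals of both genes lay wholly above 2-fold. Nkx3-2, a cartilage regulator, had 81 knockout and 17 wildtype counts (log2 2.08, 0.58 to 4.16), and turned to -0.61 with 5 kb on each side. Nkx6-2, an oligodendrocyte gene, had 1756 knockout and 889 wildtype counts (log2 0.81), and Nkx2-5, the heart regulator, had 86 knockout and 150 wildtype counts (log2 -0.97, -1.78 to -0.16). The family sum was 1.20 (1.04 to 1.37) and kept its direction under every scaling tried, between 0.54 and 1.33.

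Tbx genes pattern heart, limbs and the body axis, and they went both ways. Tbx1, a gene of the pharynx and cardiac outflow tract, had 1043 knockout and 248 wildtype counts (log2 1.90, 1.501 to 2.33). Tbx3, which acts in limb and mammary gland, had 1879 knockout and 744 wildtype counts (log2 1.17, 0.92 to 1.42), but with autosomal scaling it was at 0.90, under 2-fold. Tbx18, a gene of the ureter and epicardium, had 301 knockout and 839 wildtype counts (log2 -1.65, -2.05 to -1.27), and all 25 of its windows were lower in the knockout library. Tbx21, the T helper cell regulator, had 2564 knockout and 1454 wildtype counts (log2 0.65, 0.46 to 0.84). Tbx6, a gene of paraxial mesoderm, was at 0.56, while Tbx15, a skeletal gene, was at -0.50. Tbx2, Tbx4, Tbx5 and Tbx20, all of heart or limb, lay between -0.13 and 0.30. The family sum was 0.25 (0.19 to 0.32), and it turned to -0.018 with autosomal scaling, to -0.050 with scaling within CpG classes and to -0.41 with windows of 5 or more CpGs centred.

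Single Tbx genes held blocks of adjacent windows, which in Tbx15 had opposite directions. In Tbx1, 13 adjacent windows on chromosome 16 from 18588101 to 18589400, which take in the first printed promoter, held 490 knockout and 82 wildtype counts (log2 2.41, 1.75 to 3.20). At the upstream end of Tbx4, 10 windows from 85885701 to 85886700 on chromosome 11 held 394 knockout and 16 wildtype counts (log2 4.45, 3.04 to 6.35). In Tbx15, 11 windows from 99257501 to 99258600 on chromosome 3 held 223 knockout and 17 wildtype counts, and 9 windows from 99280901 to 99281800 held 16 knockout and 274 wildtype counts. The lower Tbx15 block had a log2 ratio of -4.27 (-6.17 to -2.83) and at most 2 CpGs per window, whereas the higher one had up to 6. Blocks named here and for the other families were chosen after their values were seen, from the longest runs of adjacent windows of 1 direction.

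**Figure D2:**
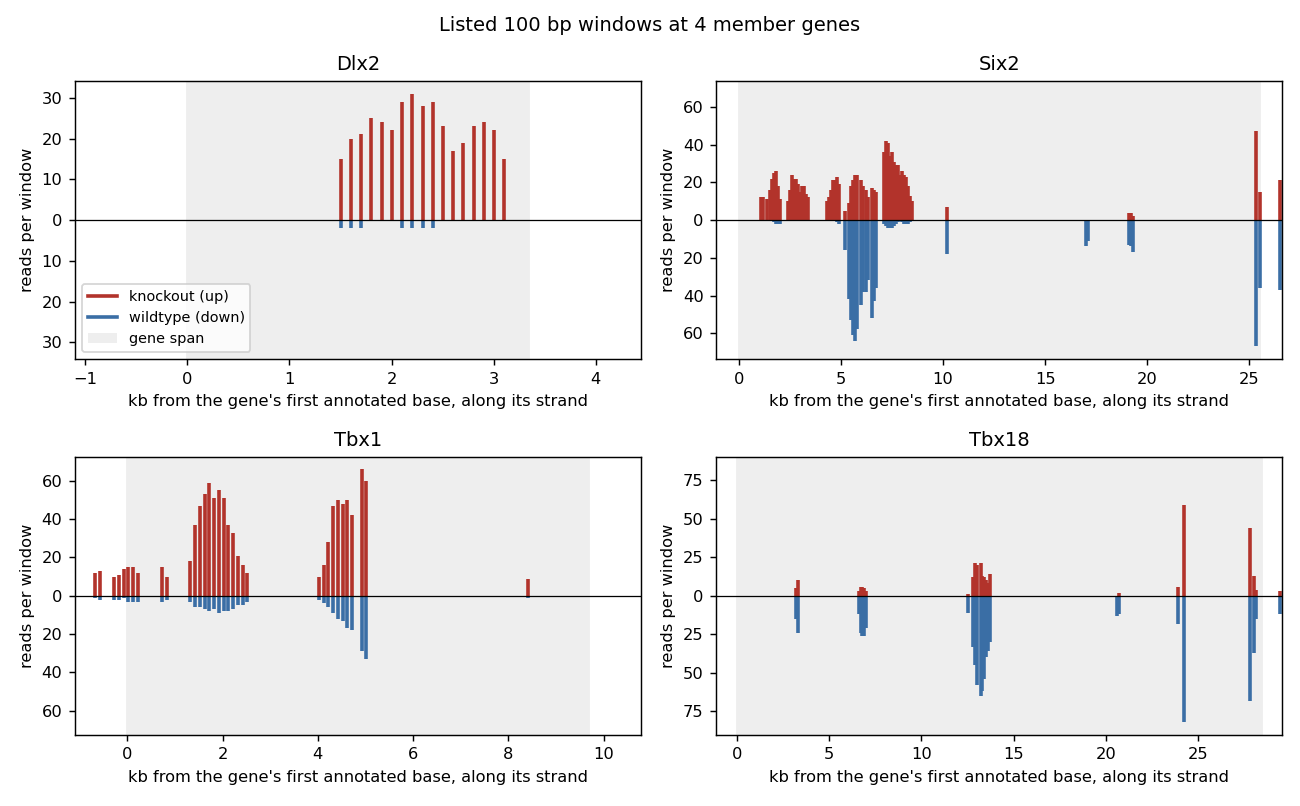
Counts per listed 100 bp window are drawn upward for the knockout library and downward for the wildtype library along Dlx2, Six2, Tbx1 and Tbx18, against the distance in kb from the first annotated base of the gene. Dlx2 has 1 block with 15 to 31 knockout counts per window, Six2 alternates in direction, and all 25 windows of Tbx18 are lower in the knockout library.

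Pax genes, which govern eye, kidney, muscle, B cell and islet development, gave no higher gene and 2 lower ones among 9. Over all protein-coding genes 9.63% were higher and 5.70% lower. Pax1, a gene of vertebrae and thymus, had 24 knockout and 98 wildtype counts (log2 -2.20, -3.75 to -0.84). Pax4, an islet regulator, had 186 knockout and 393 wildtype counts (log2 -1.25, -1.80 to -0.74). All listed windows of both genes hold at most 2 CpGs. Pax9, the close relative of Pax1, had 488 knockout and 254 wildtype counts (log2 0.77, 0.31 to 1.22), and Pax3, a neural crest and muscle gene, had 7506 knockout and 5347 wildtype counts (log2 0.32, 0.22 to 0.42). The long genes were nearer to 0 than 2-fold: Pax5, the B cell regulator, had 17768 knockout and 16121 wildtype counts (log2 -0.03, -0.09 to 0.03), and Pax2, Pax6, Pax7 and Pax8 lay between -0.10 and 0.31.

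Long Pax genes also held local blocks. In Pax3, 11 windows from 78131801 to 78132900 on chromosome 1 held 647 knockout and 53 wildtype counts (log2 3.44, 2.66 to 4.41). In Pax2, a kidney gene, 8 windows from 44796201 to 44797000 on chromosome 19 held 198 knockout and 399 wildtype counts (log2 -1.18, -1.69 to -0.66). The whole-gene ratios of 0.32 at Pax3 and -0.05 at Pax2 do not show either block. The sum over Pax genes was 0.02 (-0.02 to 0.06), and its sign followed the scaling.

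Lhx genes act in forebrain, pituitary, motor neurons, kidney and gonad, and none of the 7 with listed windows was called. Over all protein-coding genes the shares were 9.63% higher and 5.70% lower. Lhx9, which is needed to form the gonad, had 715 knockout and 854 wildtype counts (log2 -0.42, -0.72 to -0.13). Lhx4, a pituitary gene, had 4001 knockout and 2978 wildtype counts (log2 0.26, 0.12 to 0.40). Lhx6, a gene of cortical interneurons, had 870 knockout and 940 wildtype counts (log2 -0.28, -0.55 to -0.0043). Lhx8, which acts in oocytes and cholinergic neurons, had 1492 knockout and 1362 wildtype counts (log2 -0.04). The family sum was 0.02 (-0.07 to 0.11), and without Lhx4 it was -0.17.

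Families differed in how many of their windows were CpG-dense, and their ratios followed that order in part. Windows with 5 or more CpGs made up 34.8% of listed Dlx windows, 25.3% of Nkx, 17.4% of Tbx, 17.3% of Six-family, 7.49% of Lhx and 5.41% of Pax windows. The shares of windows higher in the knockout library were 79.7% for Dlx, 94.0% for Nkx, 57.2% for Tbx, 68.3% for Six-family, 48.7% for Lhx and 47.2% for Pax. Over the 41 genes, the log2 ratio and the percentage of CpG-dense windows had a Spearman rho of 0.80. It is given as a description, since genes of a cluster and windows of a gene share fragments. Both values come from listed windows, of which 99.5% of the CpG-dense and 38.0% of those with 1 or 2 CpGs were higher. A positive rho was therefore largely set in advance, and none was computed over all genes. The rho with gene length was -0.40. Among the 17 genes under 10 kb with the minimum, 8 were higher, against 23.4% of all such genes, and 1 lower, against 11.6%. Among the 24 genes of 10 kb or longer 4 were higher, against 3.95%, and 2 lower, against 3.26%.

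CpG content ordered the windows inside these genes as it did elsewhere in the genome. The 48 genes held 1880 distinct listed windows, of which 54.5% were higher in the knockout library, against 56.8% of 1283480 windows at all protein-coding genes. With 1 CpG, 32.2% of 650 windows were higher (Clopper-Pearson interval 28.6 to 35.9%), against 37.6% at all genes. With 2 CpGs the share was 45.2% of 538 windows, against 49.6%, and with 3 to 4 CpGs it was 75.2% of 476 windows, against 78.5%. With 5 to 10 CpGs 99.5% of 200 windows were higher, against 98.8%, and with 11 or more all 16 were, against 99.2%. Direction therefore hardly set these genes apart, and in the classes of 1 to 4 CpGs their shares lay slightly below those of all genes. Adjacent windows share fragments, while the intervals treat windows as independent and are therefore too narrow.

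Ratios in CpG-dense windows were larger here than in all genes, but not once windows were split at 15 wildtype counts. In the class of 5 to 10 CpGs the median log2 ratio was 1.90 in these genes and 0.65 in all protein-coding genes. A ratio of at least 4-fold was reached by 45.5% of their windows (38.5 to 52.7%), against 17.0%. Low counts went with this: the medians were 35 knockout and 7 wildtype counts in these genes, and 120 knockout and 70 wildtype counts in all genes. The wildtype library had at most 15 counts in 65.5% of their windows, against 18.3%, and 0 counts in 23.0%, against 2.46%. Among windows with at most 15 wildtype counts the median log2 ratio was 2.27 here and 2.88 in all genes. At least 4-fold was reached by 67.2% of those windows here and by 86.8% in all genes. Above 15 wildtype counts the medians were 0.54 here and 0.58 in all genes. On neither side of 15 wildtype counts was the median ratio of these genes thus larger. The lower side was not matched in counts. Its medians were 21 knockout and 2 wildtype counts here, and 50 knockout and 5 wildtype counts in all genes. Windows without a wildtype count were set to 3 counts, which limits their ratios. A window with few counts needs a larger ratio to pass the deposited p-value, and the part of that selection in the medians was not tested.

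With 11 or more CpGs the medians were 18 knockout and 3 wildtype counts here, against 58 knockout and 7 wildtype counts in all genes, and the median log2 ratios were 2.43 here and 2.21 there. At least 4-fold was reached by 75.0% of these windows, against 55.8%. All 16 had at most 15 wildtype counts. In all genes, windows with so few had a median of 2.88, and 85.3% were at least 4-fold higher. The score for relative methylation that the authors deposited, on a scale they do not give, had medians of 0.032 in the knockout and 0.011 in the wildtype library in the class of 5 to 10 CpGs. In all protein-coding genes the score medians of that class were 0.115 in the knockout and 0.114 in the wildtype library. The CpG-dense windows of these genes thus had low scores in both libraries, lower in the wildtype one.

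**Figure D3:**
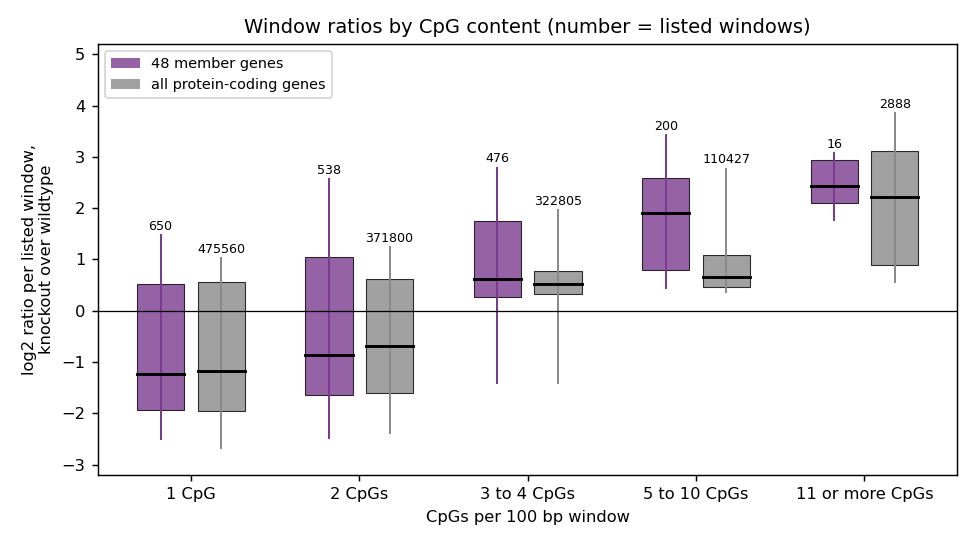
Boxes show the quartiles and lines the 10th to 90th percentiles of the log2 ratio of knockout over wildtype per listed window, by the number of CpGs in the window, for the 48 genes (purple) and all protein-coding genes (grey). Medians climb from -1.24 with 1 CpG to 2.43 with 11 or more in the 48 genes, and in the class of 5 to 10 CpGs their median of 1.90 lies above 0.65 for all genes.

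Most genes contained both kinds of windows. CpG-dense windows were listed at 36 of the 48 genes, and at 35 of them each such window was higher in the knockout library; the exception was Lhx6, with 1 of 2. At 28 genes with the minimum in both classes, the ratio of CpG-dense windows exceeded that of windows with 1 or 2 CpGs in 26. In 14 the dense windows were higher and the sparse ones lower. At all protein-coding genes 98.8% of listed CpG-dense windows were higher, and 42.9% of those with 1 or 2 CpGs. Counts per gene were not made over all genes, so these cannot be read as particular to the 48. Tbx2 was an example, with a 6.06-fold ratio in dense windows and a log2 ratio of -1.20 (-1.96 to -0.52) in sparse ones. Tbx5, a heart and forelimb gene, had a 2.26-fold ratio in dense and -0.40 (-0.56 to -0.23) in sparse windows. Summed over dense windows the families ran from 3.20 (2.35 to 4.05) for Six-family and 2.00 (1.49 to 2.57) for Dlx, through 1.38 (1.03 to 1.74) for Nkx and 1.36 (1.19 to 1.54) for Tbx, to 0.73 (0.58 to 0.88) for Pax and 0.51 (0.20 to 0.82) for Lhx. Each family's interval overlapped that of the next in this order except those of Tbx and Pax, and the interval of Dlx overlapped that of Tbx as well.

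Sparse windows took the direction of their surroundings. Of 176 windows with 1 or 2 CpGs within 300 bp of a listed CpG-dense window, 173 were higher in the knockout library (98.3%), against 98.4% at all protein-coding genes. Farther away 27.6% of 1012 such windows were higher, against 31.3%. Captured fragments are longer than a window, so a sparse window beside a dense one can count the same fragments.

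Distance from the start gave another view of the 35 genes with a known start. Within 0.5 kb of it 9.18% of window positions were listed, against 10.7% in all genes, and from 0.5 to 1 kb 5.82% were, against 12.0%. From 5 to 10 kb the shares were 12.6% and 12.9%. All 39 listed windows within 0.5 kb were higher in the knockout library, against 78.9% in all genes, and they came from 7 of the 35 genes. From 0.5 to 1 kb 91.3% of 23 windows were higher, against 80.7%, and from 1 to 2 kb 80.6% of 67, against 65.3%. From 5 to 10 kb 51.2% of 447 windows were higher, against 61.1%.

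**Figure D4:**
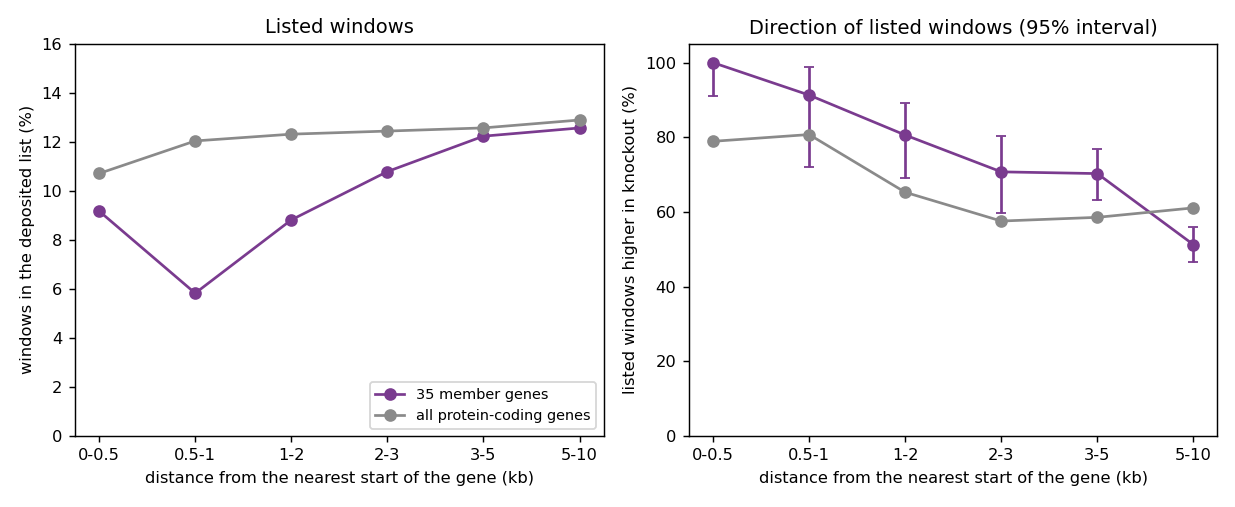
The left panel gives the percentage of 100 bp window positions that were listed and the right panel the percentage of those that were higher in the knockout library, by distance in kb from the nearest start, for 35 of the genes (purple, with 95% intervals) and all protein-coding genes (grey). Listed positions dip to 5.82% at 0.5 to 1 kb in the 35 genes, and the share that was higher declines from 100% to 51.2% with distance.

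Gene ends, taken as 1 kb on each side of both ends, were counted as well. Of 28 genes with the minimum there, 11 were higher (39.3%), against 22.5% of all genes, and 3 lower (10.7%), against 13.4%. The median log2 ratio was 0.70 in these genes and 0.50 in all genes.

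Genes related to the 48 were read in the same way. The shares to read these counts against are 9.63% higher and 5.70% lower over all protein-coding genes, whose median was 0.31. Of 12 further relatives (of the T-box, Nkx, Isl and Lmx genes) with the minimum, 1 was higher, Isl2 of motor neurons with 358 knockout and 72 wildtype counts (log2 2.15), and 0 were lower. Their median was -0.036. Another 50 developmental homeobox genes reached the minimum, 14 of them higher and 5 lower, and their median was 0.56. Gbx2, a hindbrain boundary gene, had 431 knockout and 15 wildtype counts (log2 4.68), and Msx1, a tooth and palate gene, 211 knockout and 8 wildtype counts (log2 4.55). The 21 genes of cofactors, which hold Eya, Dach, Ldb, Lmo, Ssbp and Tle genes and Paxip1, gave none higher and none lower, with values from -0.54 to 0.61 and a median of 0.08.

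DNA of a normal adult testis is mostly that of germ cells, and the lists that tell germ cell from somatic DNA moved in the direction of CpG-dense windows, of which 98.8% with 5 to 10 CpGs were higher at all protein-coding genes. Promoters of germline genes such as Dazl and Sycp3 and maternally imprinted regions are methylated in somatic cells and not in sperm. Of 18 germline genes with the minimum at their ends, 16 were higher in the knockout library and none lower, against 22.5% higher and 13.4% lower among all gene ends, with summed counts of 16567 in the knockout and 3306 in the wildtype library and a median log2 ratio of 2.68. Of 16 genes of maternally imprinted regions 15 were higher and none lower, against the same 22.5% and 13.4%. Their counts were 12595 in the knockout and 2078 in the wildtype library, with a median of 2.71. Over spans plus 1 kb, 6 of 19 germline genes (31.6%, median 0.68) and 11 of 19 imprinted ones (57.9%, median 1.18) were higher. With that region the share was 29.3% in the families read here and 9.63% in all protein-coding genes. CpG-dense windows had medians of 3.40 knockout and 0.684 wildtype RPKM in the 48 genes, 8.12 knockout and 1.14 wildtype RPKM in the germline genes, and 4.36 knockout and 0.570 wildtype RPKM in the imprinted ones. In whole testis, a different share of cells and a different methylation level per cell cannot be told apart, and the part of cell make-up in the ratios of the 48 genes was not tested.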

How the data were processed

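Methylated DNA of mouse testis was captured with MBD2 and sequenced in 1 Kaiso knockout and 1 wildtype library, grouped by the genotype label. The submitters' processing notes name Bowtie2 2.2.6, edgeR and mm10. A single deposited table covers both libraries in 100 bp windows, and its column names are MEDIPS ones, per the file headers. The authors' count holds the reads of a window, always a whole number, and their RPKM divides it by window length and library size. The authors' score of relative methylation comes without a scale. The authors' log2 fold change is coded wildtype over knockout and gave only the shift of 0.13 used in an alternative scaling. All 2537435 windows had a deposited p-value below 0.05, equal to the adjusted one. Another 10 columns of values were not used.

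Ratios were knockout over wildtype, scaled by the library reads behind the deposited RPKM. The window counts summed to 145566310 in the knockout and 107010115 in the wildtype library, more than the reads. Window sums were therefore divided to approximate fragments, and the divisor of 4 was assumed, as read extension is not given. With 6 counts per fragment, Dlx6, Nkx3-2 and Six5 fell under the minimum and lost their higher calls. Given the total of both libraries, 95% intervals were exact Clopper-Pearson ones. They hold counting error alone, and reads that are PCR copies make them too narrow. A region without a wildtype count was set to 3 fragments (12 window counts) and a single window to 3 counts. Calls needed 20 fragments, a 2-fold ratio and an interval excluding 1. Gene spans and promoters came from RefSeq GRCm38.p6, the assembly of mm10. Exons were not used here, and the number of CpGs given for a window equalled that in the RefSeq letters in all 8689 windows lying inside a promoter.

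Named with full values by rule were up to 4 genes per family with the interval bound farthest from 0, all lower genes, genes without windows, and up to 4 per further list. Values of Pax5, Lhx8, Dlx3, Dlx4, Nkx2-3, Six6 and Nkx2-5 were added after they were seen. The genes, lists and rules were chosen with earlier results of these data known, and 1 gene of a further list is not reported here. Other scalings, minimums, folds, regions and window selections were tried, with edgeR 4.0.16 for trimmed means, Python 3.11.15, numpy 2.4.6, pandas 2.3.3 and scipy 1.17.1.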

Additional observations from a re-analysis of the deposited data

How the results depend on the processing

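No paired analysis was possible because each genotype has 1 library. The median over all protein-coding genes, 0.31 as reported, was 0.03 with autosomal scaling, 0.13 with trimmed means, 0.44 with the authors' scaling, -0.36 with centring on windows of 5 or more CpGs, and 0.03 with scaling within CpG classes. Values below are log2 ratios or shares as in the report. Autosomal scaling gave sums of -0.25 for Pax, -0.018 for Tbx, 0.47 for Six-family genes, -0.25 for Lhx, 0.37 for Dlx and 0.93 for Nkx, and medians of -0.31 for the relatives and -0.20 for the cofactors. Trimmed means gave -0.15 for Pax, 0.081 for Tbx, -0.15 for Lhx and 1.03 for Nkx, and the authors' scaling 0.15 for Pax, 0.38 for Tbx and 0.15 for Lhx. With windows of 5 or more CpGs centred, 8 genes were lower, against 12.1% of all protein-coding genes, and the median of the 48 genes was -0.39. Sums were -0.65 for Pax, -0.41 for Tbx, 0.079 for Six-family genes, -0.64 for Lhx, -0.021 for Dlx and 0.54 for Nkx. The shares of windows higher were then 19.7% with 1 CpG, 30.1% with 2, 47.1% with 3 to 4 and 78.0% with 5 to 10, and the medians -0.70 for the relatives, -0.10 for other homeobox genes, -0.59 for cofactors and 2.04 for imprinted gene ends. Scaling within CpG classes gave 7 higher genes, against 6.70% of all protein-coding genes. Its sums were -0.20 for Pax, -0.050 for Tbx, 0.45 for Six-family genes, -0.24 for Lhx, 0.27 for Dlx and 0.86 for Nkx. Its shares were 60.9% with 3 to 4 CpGs and 78.0% with 5 to 10, and its medians -0.29 for the relatives and -0.16 for the cofactors.

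With 5 kb on each side 7 genes were lower, the Nkx sum was 0.68, and Six3 (-0.16), Dlx6 (-0.14) and Nkx3-2 (-0.61) reversed. The share of all protein-coding genes that was lower with 5 kb on each side was not counted. Those 7 lower genes therefore cannot be read as particular to these families. Without flanks the Nkx sum was 1.4997 and the share with 5 to 10 CpGs 100%. At gene ends alone the sums were 0.71 for Pax, 1.06 for Tbx, -0.72 for Six-family genes, -0.16 for Lhx and 0.97 for Dlx, the shares 51.9% with 1 CpG, 68.3% with 2 and 84.4% with 3 to 4, the cofactor median 0.41, and Six4 -3.17. Without the largest gene of each family the sums were 0.46 for Six-family genes, -0.17 for Lhx, 1.78 for Dlx and 1.56 for Nkx. Windows with a deposited p-value below 0.001 gave -3.96 at Zbtb33, a median of 0.91, sums of 0.29 for Pax, 0.63 for Tbx, 1.38 for Six-family genes, 0.42 for Lhx, 3.18 for Dlx and 1.65 for Nkx, shares of 38.2% with 1 CpG, 55.6% with 2, 85.4% with 3 to 4 and 100% with 5 to 10, and 1.29 for other homeobox genes. The causes of these shifts were not tested beyond what each setting fixes by construction. Another 274 of the summed or counted values stayed near those reported, and of the values of single genes 718 did and 148 moved without reversing. Calls of higher genes lost by scaling were those of Six4 (0.78) and Tbx3 (0.90) under autosomal counts and of the same 2 genes (0.88 and 0.995) under trimmed means. Centring on CpG-dense windows lost Six4 (0.39), Tbx3 (0.50), Dlx1 (0.80) and Nkx3-2 (1.42, interval from -0.090). Scaling within classes lost Six4 (0.80), Tbx3 (0.77) and Dlx1 (0.998), and left Six5 and Dlx6 under the minimum. Counts of higher genes ran from 7 to 15 over all settings. Over all protein-coding genes the share higher ran from 4.69% to 11.7% over the scalings and was 22.5% at gene ends. It was not counted for the other settings.

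Depth limits the smaller genes: 40 fragments as the minimum left 8 higher and 2 lower genes. The shares over all protein-coding genes were not counted at that minimum. With 1 library per genotype, the spread between animals is unknown, a window outside the list says nothing, and the contradictory description of the knockout sample leaves the direction resting on its genotype label. Captured DNA mixes methylation level with CpG density and cell make-up.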
